A study of Mus musculus with 6 samples.

Results

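Fibroblast growth factors (FGFs) are secreted ligands that bind receptor tyrosine kinases of the FGFR family together with heparan sulphate, and so carry signals between epithelium and mesenchyme. In the genital tubercle, the embryonic outgrowth that becomes the penis or clitoris, Fgf8 is known as a ligand of the distal urethral epithelium, Fgf10 as a mesenchymal ligand, and Fgfr2 as a receptor that the urethral epithelium needs to mature in mice. Epithelia splice Fgfr2 to the IIIb form, which binds Fgf7 and Fgf10, and mesenchyme to the IIIc form. The members described here are all probe sets annotated to Fgf8, Fgf9, Fgf10, Fgf7, Fgf18, Fgf20, Fgfr1, Fgfr2, Fgfr3 or Fgfr4, which are 21 of the 45037 probe sets on the array that are not controls. Ligands had 8 of them and receptors 13. The probe table pairs probe sets with genes and not with splice forms, so IIIb and IIIc transcripts are not told apart.

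The arrays measured RNA of cells sorted from mouse genital tubercles at 12.5 days post coitum. All embryos came from a mixed background and carried Shhtm1(EGFP/cre)Cjt, which places EGFP and Cre recombinase in the Shh locus, and Gt(ROSA)26Sortm3(CAG-EYFP)Hze, a Cre-dependent yellow fluorescent reporter. Reporter-positive cells (3 arrays), labelled as urethral epithelium, were set against reporter-negative cells, labelled as genital tubercle (3 arrays). Each array held a pool of male and female littermates. Replicate 1 of each fraction pooled 3 embryos, replicate 2 pooled 5 and replicate 3 pooled 2. Cre from the Shh locus marks cells that express Shh or descend from cells that did, so the positive fraction is defined by Shh history.

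Positive replicate 3 stood apart from the other arrays and results are given with and without it. Its median deposited signal over probe sets with 1 gene name was 0.34, against 2.15 to 8.84 in the other 5 arrays, while hybridization controls averaged 1443 to 1884 on every array. Background was taken on each array as the brightest control probe set for bacterial transcripts not added at hybridization. It was 4.47, 4.41 and 1.12 in positive replicates 1, 2 and 3, and 5.36, 8.28 and 2.03 in negative replicates 1, 2 and 3. All 10 epithelial markers were above background on every positive array, and their medians against the negative mean were 1.72, 2.93 and 2.94 on the log2 scale in positive replicates 1, 2 and 3. The brighter Shh probe set, read at 287, 718 and 16.9 in positive and 1.31, 18.4 and 2.51 in negative arrays, differed by 5.03 (SE 0.50, adjusted p = 0.0209, limma). On each negative array 5 or 6 of 6 surface ectoderm markers and 5 to 7 of 10 epithelial markers exceeded background. Of all probe sets with 1 gene name 59.3%, 51.6% and 51.7% did so in negative replicates 1, 2 and 3. The surface ectoderm counts, 6, 6 and 5 of 6 in negative replicates 1, 2 and 3, lay above that share. The epithelial counts were near it, so they do not show by themselves whether the negative fraction held epithelium. The part of surface ectoderm cells in the negative fraction was not tested.

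No FGF ligand or receptor differed between the fractions at an adjusted p under 0.05. After quantile normalization of the 6 arrays the highest differences were those of Fgfr3 (1.17) and Fgfr2 (0.98, but -0.87 as deposited and -0.68 with median centring), and the lowest those of Fgf9 (-0.83) and Fgfr1 (-0.48). Over the 6 arrays 0 of the 21 probe sets passed (limma, adjusted over 45037 probe sets), where 0.0200% of all probe sets did. Without positive replicate 3 again 0 of 21 passed, against 0.0666% of all. At an unadjusted p under 0.05 limma counted 2 of the 21 over the 6 arrays and 1 of the 21 over the 5, against 3.90% and 6.03% of all probe sets. The median difference of the 21 was -0.00 over the 6 arrays and -0.03 over the 5, against 0.01 and -0.01 for all probe sets. After normalization the 3 positive arrays lay above the 3 negative ones for 1 of the 21 probe sets (4.76%, against 5.80% of all) and below them for 2 (9.52%, against 5.74% of all). Of these 2, Fgfr4 1427777_x_at was above background on no array and differed by -0.025. Fold changes here are on the scale of log2(normalized signal + 16), which understates changes of dim probe sets. The lowest normalized value above background was 4.92 in positive replicate 3, against 4.26 to 4.44 in the other arrays. Signals near background were thus placed higher on that array. There Fgf7 1438405_at, at 1.21, became 5.07, and Fgfr1 1424050_s_at, at 1.07 and below background, became 4.81.

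**Figure D1:**
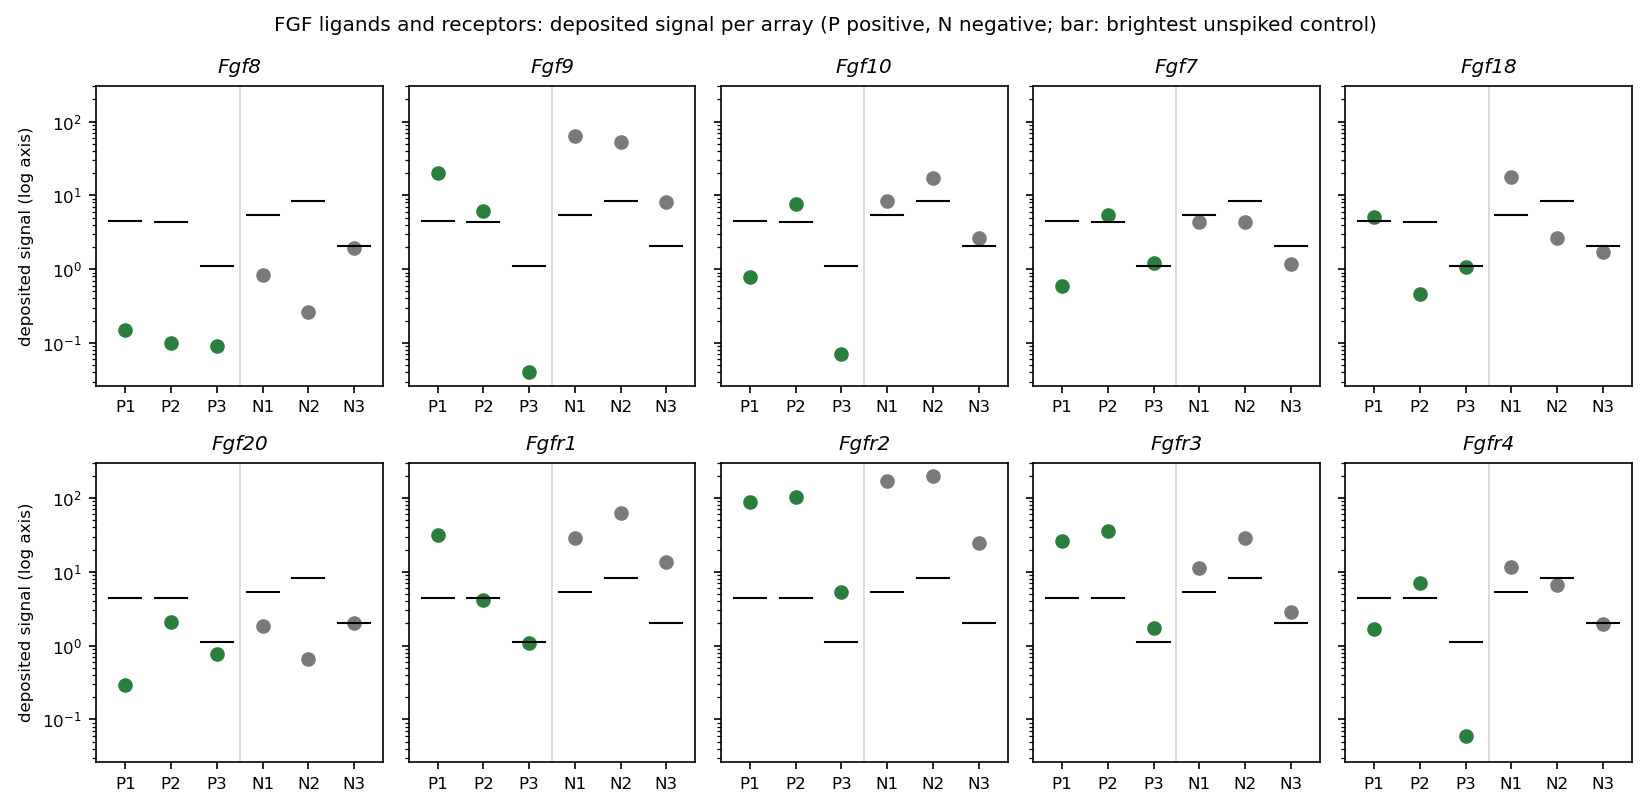
Deposited signal (log axis) of the brightest probe set of each gene on each array, positive replicates 1 to 3 (P1 to P3) left of negative replicates 1 to 3 (N1 to N3), with a bar at the brightest unspiked control of that array. Fgfr2 and Fgfr3 lie above the bar on all 6 arrays, Fgf9, Fgf10 and Fgfr1 on all 3 negative arrays but not on all positive ones, and Fgf8 on none.

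Signal was low for many of the 21 probe sets, as it was on the array as a whole. In positive replicates 1, 2 and 3, 10, 7 and 6 of the 21 exceeded background, against 45.2%, 38.4% and 23.0% of all probe sets. In negative replicates 1, 2 and 3 the counts were 11, 7 and 10, against 54.2%, 45.6% and 46.6% of all. Of the 21 probe sets 17 exceeded background on at least 1 array, 2 on all 6, and 4 on none. By any probe set, 9 of the 10 genes were above background somewhere, and the exception was Fgf8. With 3 arrays a group every value has limited precision. In sorted bulk material fewer cells that express a gene and less RNA per cell cannot be told apart.

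Among the ligands, Fgf8 was not measurable in either fraction. Its single probe set gave signals of 0.15, 0.10 and 0.09 in positive replicates 1, 2 and 3 and 0.84, 0.26 and 1.94 in negative replicates 1, 2 and 3, below background on each array. The normalized difference of -0.07 (95% interval -0.25 to 0.11) therefore compares values at the floor of the array, and the probe set says nothing of where Fgf8 is expressed.

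Fgf10, a mesenchymal ligand of Fgfr2 IIIb, was above background on all 3 negative arrays and on 1 of 3 positive arrays. It read 0.78, 7.72 and 0.07 in positive replicates 1, 2 and 3, against 8.44, 17.4 and 2.68 in negative replicates 1, 2 and 3. Positive replicate 2 was thus the only positive array with a measurable level, and after normalization it was the highest of the 6, at 4.78 on the log2 scale. The groups overlapped, with 4.31 ± 0.40 in positive and 4.48 ± 0.11 in negative cells (SD, n = 3 each). The difference was -0.17 (SE 0.25, 95% interval -0.72 to 0.37, adjusted p = 0.866, limma), and it was negative in every alternative, from -1.05 to -0.05.

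Fgf7, another ligand known to act on the IIIb form, showed no settled level. At 1438405_at the signal was 0.59, 5.49 and 1.21 in positive and 4.30, 4.41 and 1.18 in negative replicates 1, 2 and 3. Positive replicates 2 and 3 exceeded their backgrounds by a small margin and no negative array did. The groups overlapped after normalization. Its difference was 0.36 (SE 0.26) over the 6 arrays and 0.11 (SE 0.19) over the 5, and it turned to -0.07 with signals as deposited. The probe set 1422243_at exceeded background on 1 array of each group, replicate 1 in either case, at 6.46 in positive and 9.49 in negative cells.

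Fgf9, a ligand of the IIIc forms, had the largest ligand difference and lay lower in positive cells by both of its probe sets. The brighter, 1438718_at, read 19.8, 6.05 and 0.04 in positive replicates 1, 2 and 3, against 63.4, 52.2 and 8.06 in negative replicates 1, 2 and 3. Only the first 2 of these positive arrays and all 3 negative ones were above background. After normalization the groups did not overlap, with 5.15, 4.62 and 4.02 in positive and 5.73, 5.29 and 5.27 in negative arrays. The difference was -0.83 (SE 0.36, 95% interval -1.62 to -0.04, adjusted p = 0.797, limma) and -0.59 (SE 0.30, adjusted p = 0.826, limma) without positive replicate 3.

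At the dimmer 1420795_at the Fgf9 signal was 6.60, 9.83 and 0.06 in positive and 27.5, 13.9 and 6.35 in negative replicates 1, 2 and 3. Its groups overlapped after normalization and its difference was -0.37 (SE 0.31), or -0.16 (SE 0.28) over the 5 arrays. Both Fgf9 probe sets kept a negative sign in every alternative that included them, and none of these reached the threshold.

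Fgf18 and Fgf20 gave scattered values. Fgf18, a ligand known from skeleton and lung, read 5.03, 0.46 and 1.07 in positive and 18.0, 2.64 and 1.72 in negative replicates 1, 2 and 3, and exceeded background in replicate 1 of either group only. Its difference was 0.04 (SE 0.27) over the 6 arrays and -0.18 (SE 0.24) over the 5. Fgf20, related in sequence to Fgf9, read 0.29, 2.11 and 0.76 in positive and 1.84, 0.65 and 2.04 in negative replicates 1, 2 and 3. Negative replicate 3 alone was above its background, 2.04 against 2.03, so no level of Fgf20 was established.

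Among the receptors, Fgfr3 had the highest difference after quantile normalization of the 6 arrays. In size Fgf9 exceeded it with signals as deposited (-1.12 against 0.25), with median centring (-0.93 against 0.44) and with a pseudocount of 1 (-2.17 against 2.10). Fgfr3 is known as a brake on cartilage growth and as a receptor of stratified epithelia. At 1421841_at the signal was 26.4, 35.7 and 1.73 in positive replicates 1, 2 and 3, against 11.2, 28.6 and 2.90 in negative replicates 1, 2 and 3, above background on all 6. As deposited the groups overlapped: the dim positive replicate 3 lay below every negative array, and positive replicate 1 lay below negative replicate 2.

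After normalization Fgfr3 was 5.41, 6.15 and 5.80 in positive and 4.51, 4.86 and 4.48 in negative replicates 1, 2 and 3. All positive arrays then lay above all negative ones. The difference was 1.17 (SE 0.34, 95% interval 0.41 to 1.93, adjusted p = 0.797, limma) and 1.26 (SE 0.30, 95% interval 0.60 to 1.92, adjusted p = 0.392, limma) without positive replicate 3. It was positive in all 17 alternatives but its size depended on the scaling, at 0.25 with signals as deposited and 0.44 with median centring. It also depended on the pseudocount, at 2.10 with a pseudocount of 1 and 0.51 with a pseudocount of 64. The lowest adjusted p of any alternative was 0.0646, with a block for pool size and positive replicate 3 left out (limma, 0.0646 to 0.966 over the 17).

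The other Fgfr3 probe set, 1425796_a_at, was below background on every array, at 0.30, 0.17 and 0.06 in positive and 3.40, 1.10 and 0.31 in negative replicates 1, 2 and 3. Its difference of -0.06 has the opposite sign but compares values at the floor. The Fgfr3 result therefore rests on a single probe set. Of 6 surface ectoderm markers 5 had a positive difference, with a median of 1.29, but Krt5 was near 0 (0.11, SE 0.46) and Krt14 negative (-0.57, SE 0.40). Their summed deposited signal was 341, 304 and 11.4 in positive and 255, 170 and 50.9 in negative replicates 1, 2 and 3. All 10 epithelial markers had a positive difference, with a median of 2.50. The part of either marker list in the Fgfr3 difference was not tested.

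Fgfr2, the receptor for Fgf10 and Fgf7 in epithelia, was measured in both fractions, and the direction of its difference depended on the scaling. At 1433489_s_at the signal was 87.8, 103 and 5.32 in positive replicates 1, 2 and 3, against 170, 198 and 24.3 in negative replicates 1, 2 and 3. The signal was above background on all 6 arrays. As deposited, the negative array exceeded the positive array of the same pool size each time.

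After normalization Fgfr2 was 6.84, 7.47 and 8.52 in positive and 6.85, 6.64 and 6.39 in negative replicates 1, 2 and 3, so the dim positive replicate 3 became the highest array while positive replicate 1 lay just under negative replicate 1. The difference was 0.98 (SE 0.50, 95% interval -0.11 to 2.07, adjusted p = 0.797, limma), and it was 0.54 (SE 0.34, 95% interval -0.19 to 1.27) without positive replicate 3. With signals as deposited it was -0.87 and with median centring -0.68, so no direction is given for Fgfr2. These 2 scalings are close to each other. The array medians that centring aligned spanned only 0.50 on the log2 scale once the pseudocount of 16 was added. The median of all 45037 differences was -0.19 as deposited, and 0.01 after quantile normalization or median centring.

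The other Fgfr2 probe sets were dimmer. At 1420847_a_at the signal was 10.1, 4.41 and 1.70 in positive and 6.03, 7.36 and 4.20 in negative replicates 1, 2 and 3, with overlapping groups and a difference of 0.52 (SE 0.36), or 0.14 (SE 0.24) over the 5 arrays. The probe set 1443211_at did not exceed background on any array. The splicing regulators Esrp1 and Esrp2, which favour the epithelial IIIb exon of Fgfr2, had larger differences than any FGF member, 1.64 (SE 0.52) for Esrp2. Esrp1, also in the epithelial marker list, measured 6.77 ± 0.85 in positive and 4.35 ± 0.18 in negative cells (SD, n = 3 each), a difference of 2.42 (SE 0.46, adjusted p = 0.400, limma) that was 2.31 (SE 0.38, adjusted p = 0.0848, limma) over the 5 arrays. Neither regulator passed the threshold in either fit.

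**Figure D2:**
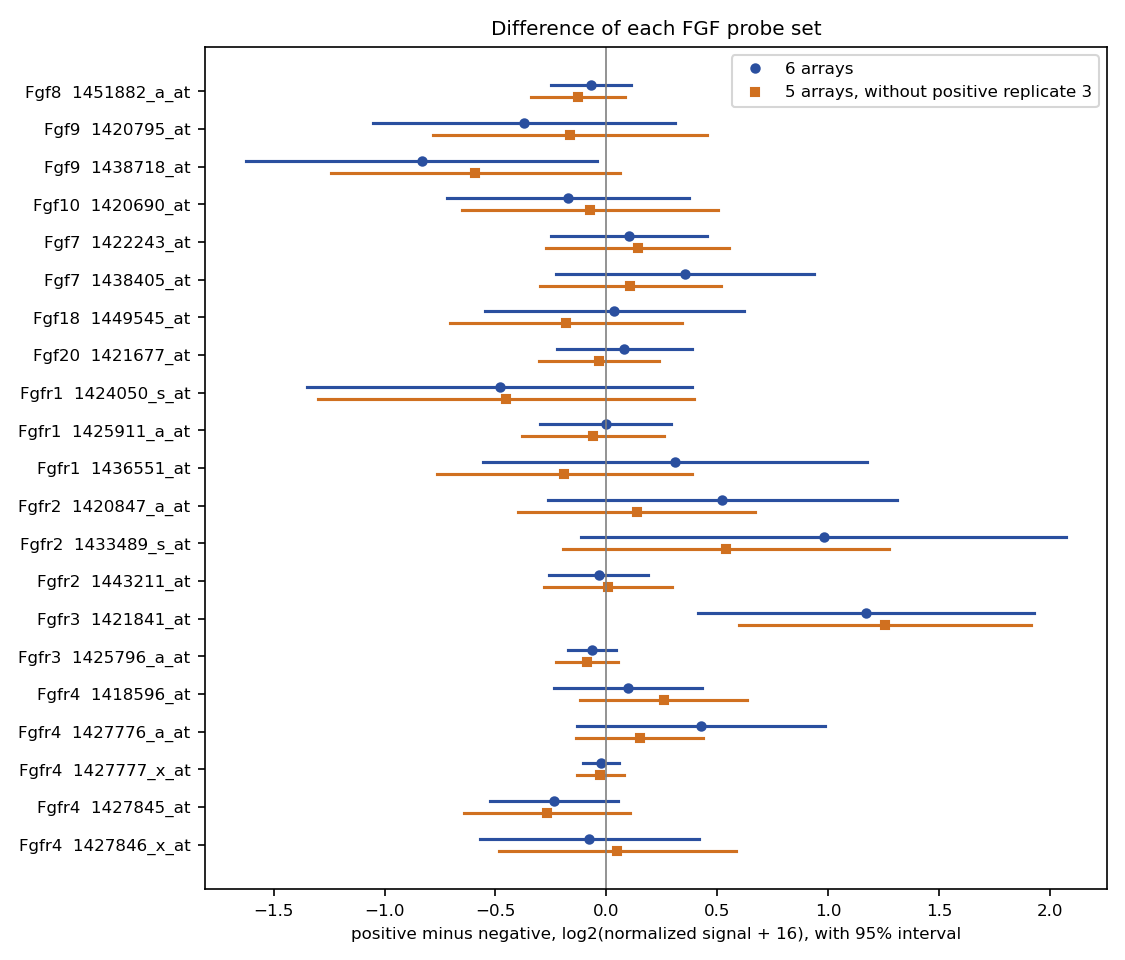
Difference of each FGF probe set, positive minus negative cells, on the log2(normalized signal + 16) scale with its 95% interval, over the 6 arrays (circles) and without positive replicate 3 (squares). The interval of Fgfr3 1421841_at lies above 0 in both fits and that of Fgf9 1438718_at below 0 in the 6 arrays only, before adjustment over all probe sets.

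Fgfr1, a receptor widely expressed in mesenchyme, was above background on all 3 negative arrays and on 1 positive array by its brightest probe set. At its brightest probe set, 1424050_s_at, the signal was 31.9, 4.09 and 1.07 in positive replicates 1, 2 and 3, against 28.5, 63.7 and 13.5 in negative replicates 1, 2 and 3. Positive replicate 1 was as bright as negative replicate 1, while positive replicates 2 and 3 were just below their background. The normalized values, 5.61, 4.41 and 4.81 in positive and 5.04, 5.46 and 5.77 in negative arrays, overlapped, with a difference of -0.48 (SE 0.40, 95% interval -1.35 to 0.39, adjusted p = 0.797, limma).

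Mesenchymal markers were also highest in positive replicate 1 among the positive arrays. The summed deposited signal of 10 such markers was 2135, 114 and 10.4 in positive and 4934, 5664 and 937 in negative replicates 1, 2 and 3, and 10, 8 and 4 of them exceeded background on the positive arrays. Their median against the negative mean was -0.20, -2.91 and -2.61 in positive replicates 1, 2 and 3. Without positive replicate 1 the Fgfr1 difference was -0.82, and without positive replicate 2 it was -0.22. The part of mesenchymal RNA in these values was not tested.

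The dimmer Fgfr1 probe sets did not settle its direction. At 1436551_at the signal was 6.01, 0.49 and 1.64 in positive and 10.4, 23.6 and 0.17 in negative replicates 1, 2 and 3, above background on 2 arrays of each group, and differed by 0.31 (SE 0.39) over the 6 arrays but by -0.19 (SE 0.26) over the 5. The probe set 1425911_a_at exceeded background only in negative replicate 3, by a small margin, and its difference was -0.00 (SE 0.13).

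Fgfr4, best known as the liver receptor for Fgf15, was near or below background by all 5 of its probe sets. The brightest, 1427846_x_at, read 1.68, 6.99 and 0.06 in positive and 11.8, 6.61 and 1.94 in negative replicates 1, 2 and 3, above background on 1 array of each group. Its suffix marks probes that may also hybridize with other transcripts. The difference was -0.08 (SE 0.22), and the other 4 probe sets differed by -0.24 to 0.43. The highest of these, 1427776_a_at, exceeded background on positive replicate 3 alone, at 1.24. Its difference was 0.43 (SE 0.25, adjusted p = 0.797, limma) over the 6 arrays and 0.15 (SE 0.13, adjusted p = 0.849, limma) without that array. Of the 5 Fgfr4 probe sets 2 had a positive difference and 3 a negative one over the 6 arrays.

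**Figure D3:**
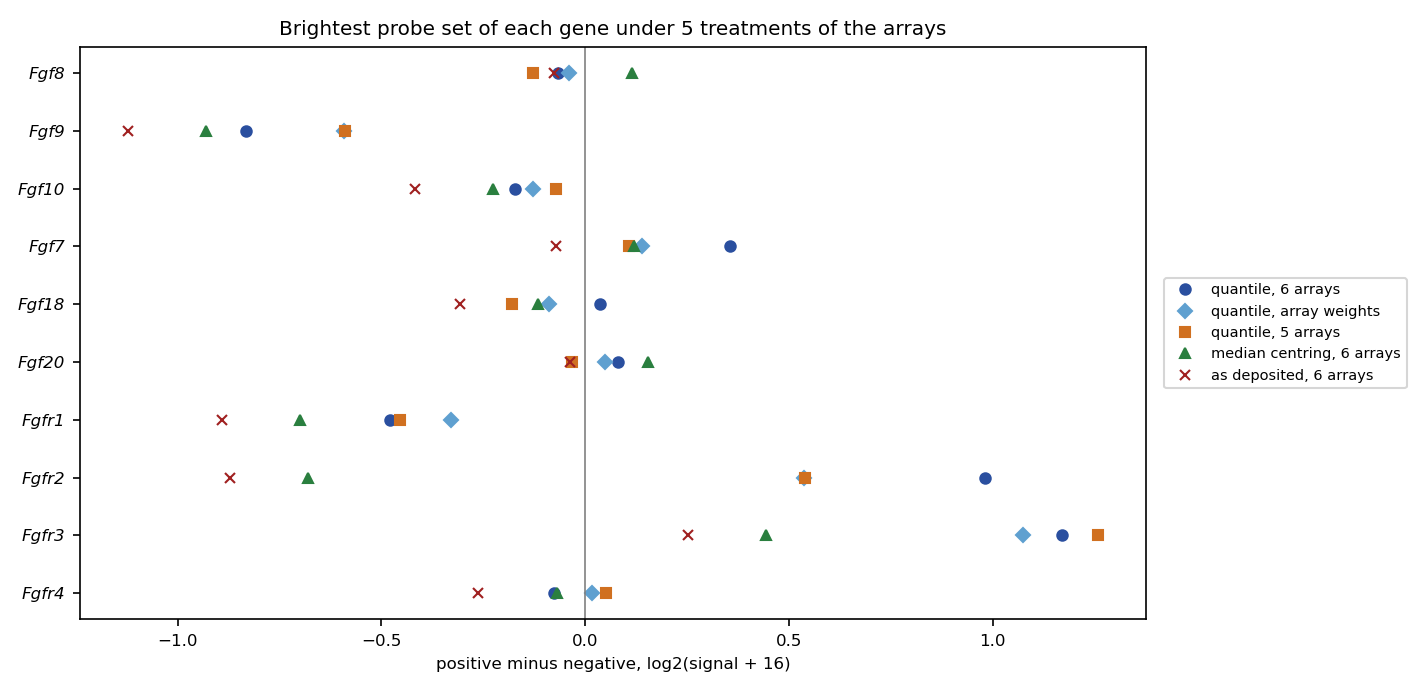
Difference of the brightest probe set of each gene, positive minus negative cells on the log2(signal + 16) scale, with quantile normalization of 6 arrays, the same with array weights, quantile normalization without positive replicate 3, median centring, and signals as deposited. Fgf9, Fgf10 and Fgfr1 stay below 0 and Fgfr3 above 0 under all 5, while Fgfr2 runs from -0.87 to 0.98.

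The rest of the FGF pathway, taken as 6 lists of 70 genes of which 62 were measured, held no gene past the threshold in the 6 arrays or without positive replicate 3 (limma). Ligands outside the family members above were near background, with 0 of 12 above it on all arrays of either group, 7 positive differences and a median of 0.02. Of the 4 intracellular FGF homologues Fgf13, which binds sodium channels, was measured on all 6 arrays, and it differed by -0.23 (SE 0.38). Co-receptors, binding proteins and heparan sulphate enzymes had 7 of 17 positive differences and a median of -0.13. Hs6st1, a heparan sulphate 6-O-sulphotransferase, was highest at 0.35 (SE 0.30). The lowest was Flrt2, a transmembrane protein of the FLRT family that binds FGF receptors, at -1.32 (SE 0.60). Without positive replicate 3 Hs6st1 was at 0.19 (SE 0.25) and Flrt2 at -0.91 (SE 0.52).

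Signal transduction and feedback genes also lay on both sides of 0. Of 11 measured transduction genes 6 had a positive difference, with a median of 0.03, and ranged between -0.92 (SE 0.48) for Plcg1, the phospholipase that docks on activated receptors, and 0.57 (SE 0.57) for Map2k2, a kinase that activates ERK. Without positive replicate 3 Plcg1 was at -0.68 (SE 0.38) and Map2k2 at -0.03 (SE 0.37), and 5 of the 11 were positive. Of 13 feedback and target genes 4 had a positive difference, with a median of -0.14, and 6 over the 5 arrays, with a median of -0.12. The ERK phosphatase Dusp6, induced by FGF signalling, measured 4.88 ± 0.73 in positive and 5.91 ± 1.15 in negative cells, and the antagonist Spry1 5.46 ± 0.21 in positive and 4.79 ± 0.06 in negative cells (SD, n = 3 each). Neither passed, at -1.04 (SE 0.57) for Dusp6 and 0.67 (SE 0.31) for Spry1. Over the 5 arrays Dusp6 was at -0.65 (SE 0.54) and Spry1 at 0.67 (SE 0.26). Of 5 regulators of Fgfr2 splicing 3 had a positive difference, Esrp1 the highest and Hnrnpa1, an RNA-binding protein, the lowest at -0.95 (SE 0.48).

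**Figure D4:**
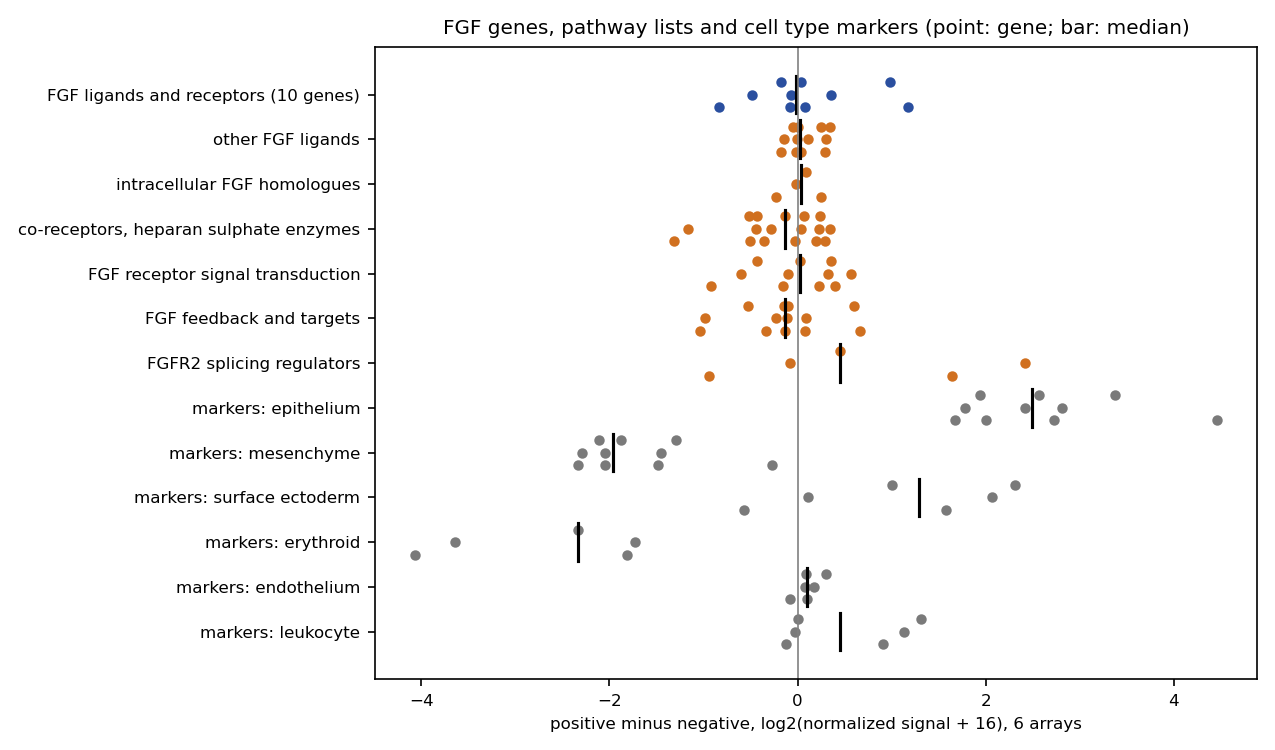
Difference of each gene by its brightest probe set, positive minus negative cells on the log2(normalized signal + 16) scale over the 6 arrays, for the 10 FGF genes, 6 pathway lists and 6 lists of cell type markers, with a bar at each median. The FGF genes have a median of -0.02 and lie between -0.83 and 1.17, while epithelial markers have a median of 2.50 and mesenchymal markers of -1.96.

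The cell type markers show the scale on which the fractions differed. All 10 epithelial markers had a positive and all 10 mesenchymal markers a negative difference, and 5 of 5 measured erythroid markers were negative, with a median of -2.33. Of the 10 FGF genes 5 had a positive difference by their brightest probe set, and Fgfr3 at 1.17 lay below each of the epithelial markers, of which the lowest was Grhl2 at 1.68. Endothelial and leukocyte markers had medians of 0.10 and 0.46. Of the 6 leukocyte markers 4 had a positive difference, 2 of them without overlap, and 2 a negative one. Without positive replicate 3, 1 of the 6 passed the threshold, higher in positive cells (limma).

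Genes with the pattern closest to Fgfr3 over the 6 arrays, by Pearson correlation of normalized log2 signals, were Podxl (0.987), a sialomucin of podocytes and other polarized cells, Shtn1 (0.986) and Sptlc3 (0.985), a subunit of serine palmitoyltransferase. Closest to Fgf9 were Cmtm3 (0.998), Tnfaip8 (0.995) and Bbs5 (0.993), a subunit of a ciliary complex. These are descriptions over 6 arrays that share the split between fractions and the dim positive replicate 3, chosen as the highest among all named genes.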

How the data were processed

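Biotin-labelled total RNA had been hybridized to an Affymetrix mouse array, per the labels' protocols. The authors deposited a linear intensity for every probe set on each array. Per the submitters' processing notes GCOS was used for 1 sample, and no source used here gives the summarization or scaling. Values were read as linear since they are never negative and span several orders of magnitude.

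Of 45101 probe sets 64 controls were set aside, of which 27 gave the background and 18 the hybridization controls. Signals were quantile normalized, a pseudocount of 16 was added and log2 taken. Positive and negative arrays were fitted in limma 3.58.1 under R 4.3.3 (lmFit, then eBayes with trend), unfiltered, with Benjamini-Hochberg adjustment over 45037 probe sets and a threshold of 0.05. No probe set was imputed. The steps were tested on simulated data. Of the probe sets 34945 had 1 gene symbol, 932 several and 9160 none, and the RefSeq table of assembly GRCm38.p6 held the gene identifier, and so the current symbol, of 34741. List genes were taken by their brightest probe set.

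The labels do not say that arrays of equal pool size share a litter. No block was used. P-values measure the spread between arrays, which may be technical in part. The members and lists were chosen with earlier results of these data known. Named beyond the members were, per list, genes past the threshold and the highest and lowest difference among genes above background on all arrays of a group, and for the members with the highest and lowest such difference the 3 most correlated genes. Esrp2, Grhl2, Krt5, Krt14 and Shh were named after their values were seen. Alternatives covered scaling, pseudocount, filter, probe set choice, variance model, array weights, pool block and left-out arrays.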

Additional observations from a re-analysis of the deposited data

How the results depend on the processing

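No FGF probe set passed the threshold in any of 17 alternatives (limma), and signal over background limits what most of them can show. Fgf9 (both probe sets), Fgf10, Fgfr1 1424050_s_at, Fgfr3 1421841_at and Fgfr4 1418596_at and 1427776_a_at kept their sign in every alternative in which they were tested. The cause of the other changes was not tested.

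The number of probe sets past the threshold, 9 over the 6 arrays, was 0 with signals as deposited, 39 with median centring, 0 with a pseudocount of 64, 4 with the filter on low values, 2 with 1 probe set per gene, 1 without an intensity trend, 154 with array weights, 4 with a replicate block for pool size, and 0 with pool sizes 3 and 5 only. A replicate block with positive replicate 3 left out, chosen after seeing the data, gave 270. Arrays of equal pool size had deviations that correlated at 0.115, 0.030 and 0.102 for replicates 1, 2 and 3, not above 0.1 in every pair. Pairs of unequal pool size correlated at -0.127 to 0.065. Each positive array correlated highest with the negative array of its own pool size, by a small margin for replicate 2. Whether such arrays share a litter was not tested. Leaving out single arrays gave 0 to 30: 6, 5 and 30 without positive replicates 1, 2 and 3, and 0, 1 and 0 without negative replicates 1, 2 and 3.

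Signs turned as follows. As deposited, the differences were -0.052 for Fgf7 1422243_at, -0.071 for Fgf7 1438405_at, -0.31 for Fgf18 1449545_at, -0.039 for Fgf20 1421677_at, -0.47 for Fgfr1 1436551_at, -0.046 for Fgfr2 1420847_a_at and -0.87 for Fgfr2 1433489_s_at. With median centring, the differences were 0.11 for Fgf8 1451882_a_at, -0.12 for Fgf18 1449545_at, 0.075 for Fgfr1 1425911_a_at, -0.28 for Fgfr1 1436551_at, -0.68 for Fgfr2 1433489_s_at, 0.035 for Fgfr2 1443211_at, 0.074 for Fgfr3 1425796_a_at, 0.13 for Fgfr4 1427777_x_at and 0.015 for Fgfr4 1427845_at. With array weights, the differences were -0.090 for Fgf18 1449545_at, -0.22 for Fgfr1 1436551_at and 0.017 for Fgfr4 1427846_x_at. With pool sizes 3 and 5 only, the differences were -0.26 for Fgf18 1449545_at, 0.016 for Fgfr1 1425911_a_at, -0.46 for Fgfr1 1436551_at and 0.020 for Fgfr4 1427846_x_at. With the replicate block and positive replicate 3 left out, the differences were -0.23 for Fgf18 1449545_at, 0.016 for Fgfr1 1425911_a_at, -0.41 for Fgfr1 1436551_at and 0.017 for Fgfr4 1427846_x_at. Leaving out each array in turn gave -0.13 to 0.032 for Fgf8 1451882_a_at, -0.0019 to 0.21 for Fgf7 1422243_at, -0.18 to 0.23 for Fgf18 1449545_at, -0.032 to 0.19 for Fgf20 1421677_at, -0.064 to 0.083 for Fgfr1 1425911_a_at, -0.19 to 0.67 for Fgfr1 1436551_at, -0.12 to 0.0074 for Fgfr2 1443211_at and -0.29 to 0.050 for Fgfr4 1427846_x_at.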
